A study of Mus musculus with 2 samples.

Results

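The genes described here are those of the interferon response, the major histocompatibility complex (MHC) and the complement system on a mouse cDNA microarray. They were taken as the gene spots whose array name began with one of a fixed set of words (interferon, 2'-5' oligoadenylate, myxovirus, guanylate nucleotide binding, histocompatibility, beta-2 microglobulin, T-cell specific GTPase, toll-like, complement, Ia-associated, the eIF2alpha kinases) or contained the word interferon. This rule used no measured value and took 74 of 8735 gene spots, which carried 66 different names. The words for the peptide transporter subunit 1 and for the large multifunctional proteases began no name on the array.

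The spots were measured in mouse embryos of the B6CBF1 strain at the morula stage, 4 d of age, on 2 arrays with 2 colours each. On both arrays the Cy5 channel (red) held embryos injected with siRNA against leukemia inhibitory factor (LIF-siRNA), and the Cy3 channel (green) held embryos injected with a scrambled siRNA. The labels give 1.0 fmol of siRNA in 1 pl, the study's methods give another dose, and the injection was made at the pronuclear stage. Each channel held RNA of a pool of embryos. Whether the arrays held separate pools was not given, so the spread between the arrays may be technical. Every embryo measured had received an siRNA and the dyes were not swapped. A response shared by both siRNAs therefore cancels in the ratio, and a dye effect and an effect of LIF-siRNA cannot be told apart. One sample label also speaks of untreated embryonic stem cells, which no title or channel bears out. No spot carried a LIF name, so the knockdown itself could not be checked here.

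Interferons are secreted when a cell detects foreign nucleic acid. Double-stranded RNA is sensed by the 2'-5' oligoadenylate synthetases, by the kinase PKR and, with other microbial products, by the toll-like receptor family, and interferon regulatory factors then switch on the interferon genes. Secreted interferon binds its receptors on the same or neighbouring cells, and a complex with Irf9 binds the interferon-stimulated response element (ISRE) in the promoters of effector genes such as Isg15, Mx1 and the Ifit family. MHC class I molecules and their light chain B2m are raised by interferons in many cells, and class II molecules belong mainly to antigen-presenting cells. Short siRNA duplexes are used in part because longer double-stranded RNA sets off this response, and the early mouse embryo is known for a weak interferon response.

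The promoters below are of a sensor, a pair of effectors and the class I light chain, 4 genes that the results turn on. They are shown because they carry letters that match the ISRE. They are RefSeq promoters of the build GRCm38.p6, 250 bases before to 50 after the start, written 5′ to 3′ on the gene's strand, with the ISRE letters (GAAA, any 2 bases, GAAA) or their reverse complement in capitals.
Oas1a promoter, chr5:120907476-120907775, minus strand: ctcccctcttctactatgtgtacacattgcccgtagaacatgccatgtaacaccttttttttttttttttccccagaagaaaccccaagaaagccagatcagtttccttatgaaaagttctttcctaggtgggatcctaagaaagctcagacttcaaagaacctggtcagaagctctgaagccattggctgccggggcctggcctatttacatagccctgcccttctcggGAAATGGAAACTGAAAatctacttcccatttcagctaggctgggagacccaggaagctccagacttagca
Isg15 promoter, chr4:156200769-156201068, minus strand: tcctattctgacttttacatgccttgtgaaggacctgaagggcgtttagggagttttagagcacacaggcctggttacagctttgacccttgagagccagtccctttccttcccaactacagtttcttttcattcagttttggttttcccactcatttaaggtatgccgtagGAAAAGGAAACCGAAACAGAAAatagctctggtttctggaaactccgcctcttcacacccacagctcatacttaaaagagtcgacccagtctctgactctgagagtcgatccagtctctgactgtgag
Ifit1 promoter, chr19:34640639-34640938, plus strand: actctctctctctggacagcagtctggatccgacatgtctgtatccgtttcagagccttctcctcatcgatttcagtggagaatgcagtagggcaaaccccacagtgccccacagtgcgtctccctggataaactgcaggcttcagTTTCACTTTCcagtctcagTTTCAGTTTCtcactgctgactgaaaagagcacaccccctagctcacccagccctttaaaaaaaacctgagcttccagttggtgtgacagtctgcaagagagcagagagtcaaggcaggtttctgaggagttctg
B2m promoter, chr2:122147437-122147736, plus strand: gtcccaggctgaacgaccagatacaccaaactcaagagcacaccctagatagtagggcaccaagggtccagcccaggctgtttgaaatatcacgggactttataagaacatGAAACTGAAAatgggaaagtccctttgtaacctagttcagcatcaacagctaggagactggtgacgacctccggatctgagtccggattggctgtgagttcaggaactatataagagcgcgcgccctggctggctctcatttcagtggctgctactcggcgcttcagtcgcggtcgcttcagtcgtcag

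The ISRE letters were found on either strand in 12 of the 55 promoters (21.8%) of the 48 member genes with a promoter in the table, against 1131 of all 32851 promoters (3.44%). They lay 2 times in the Oas1a promoter, first at base -20 from the start, 3 times overlapping in the Isg15 promoter from base -78, 2 times in the Ifit1 promoter and 1 time in the B2m promoter. The other genes with the ISRE letters were Eif2ak2, Gbp2, H2-T23, Ifi203, Igtp, Irf2, Irgm1 and Irgm2. The gamma-activated site (TTCNNNGAA, searched the same way) was found in 11 of the 55 promoters (20%), against 8.3% of all promoters. A match of letters is a description of the window and not a binding site. The genes with the ISRE letters had 14 spots whose ratio could be tested, and 5 of these were higher and 5 lower on both arrays, with a median log2 ratio of 0.03 and a range of -0.68 to 0.91. Those with the gamma-activated site had 9 such spots, 4 higher and 4 lower on both arrays, with a median of 0.41.

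Member spots were detected less often than gene spots as a whole in these 4 channels. A spot was counted as detected in a channel where the scanner software found it well above background. By that measure 58 of the 74 spots were detected in the LIF-siRNA channel of array 1 (78.4%, exact 95% binomial interval 67.3 to 87.1) and 64 on array 2 (86.5%, interval 76.5 to 93.3). In the scrambled siRNA channel 60 were detected on array 1 (81.1%) and 58 on array 2 (78.4%). Over all gene spots the shares were 90.8% and 93.8% for LIF-siRNA and 92.1% and 89.7% for scrambled siRNA. These intervals treat spots as independent and cover counting error only. The study required a signal above 1000 in either channel of a changed gene, and its methods do not say which signal column or how the arrays were combined. Here the processed signal averaged over the arrays was used, and it passed this threshold for 13 of the 74 spots (17.6%), against 40.5% of all gene spots.

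The comparison between LIF-siRNA and scrambled siRNA found no interferon, MHC or complement spot past the test as set here, while some other settings of the fit called members. A ratio was tested where each array had at least 1 channel well above background for that spot, which 59 of the 74 spots met (79.7%; 92.7% of all gene spots). Ratios are log2 of LIF-siRNA over scrambled siRNA, so that 1 is a doubling, and means are over n = 2 arrays. By limma with Benjamini-Hochberg adjustment over all 8079 probes tested, 0 of the 59 members and 0% of all probes had an adjusted p below 0.05. This count depended on the setting: it was 15 of 59 with median centring in place of lowess (17.7% of all probes), 9 with an intensity trend in the fit (14%) and 4 of 13 among spots with a signal above 1000 (18.7%). At an unadjusted limma p below 0.05 there were 23 of the 59 members (39%), against 30.7% of all probes. Of these 13 were higher after LIF-siRNA (background 15.9%) and 10 were lower (background 14.8%). The methods' criteria, applied here as a mean ratio above 2 or below 0.5 with a mean processed signal above 1000, were met upward by 1 of the 74 spots (1.35%, background 2.16%) and downward by 0 (background 2.19%). The 1 spot was the 2'-5' oligoadenylate synthetase-like gene. With the threshold on the unprocessed mean signal, an alternative chosen after seeing the data, Ifnar2 also passed.

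The members' ratios were spread about evenly to both sides of 0. Of the 59 tested spots 25 were higher on both arrays (42.4%, background 36.7%), 23 were lower on both (39%, background 36.8%) and 11 had no common direction. Their median log2 ratio was 0.05, against -0.0040 over all probes, and the means ran from -1.46 to 1.43. Leaving the signal aside, 6 of the 59 had a mean ratio above 2 (10.2%, background 6.96%) and 1 had a mean ratio below 0.5 (1.69%, background 5.27%). The SD between the arrays had a median of 0.25, as it did over all probes. The ratios on the 2 arrays had the same sign for 81.4% of the members and 73.5% of all probes.

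**Figure D1:**
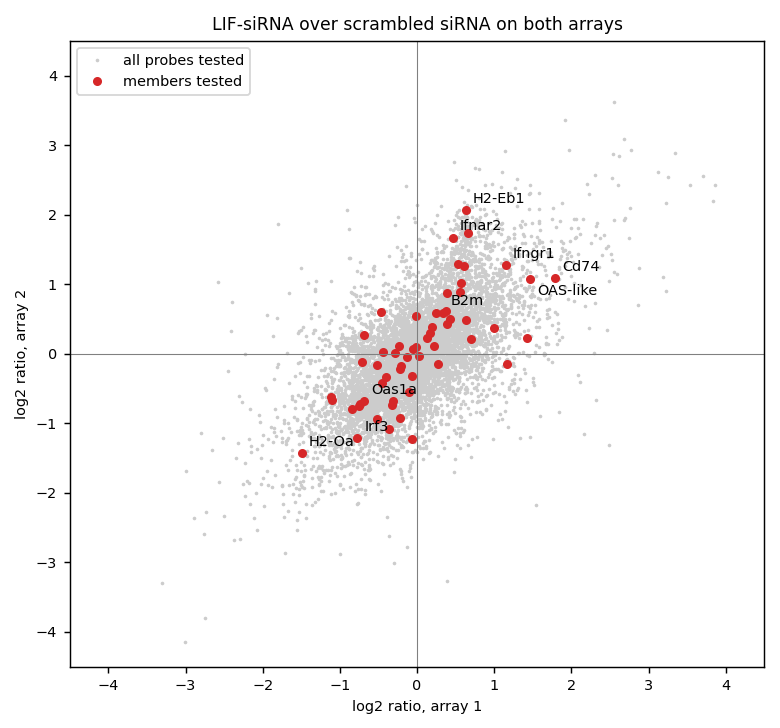
Each point is a spot, with its log2 ratio of LIF-siRNA over scrambled siRNA on array 1 (x axis) and array 2 (y axis); grey points are all 8079 probes tested and red points the tested members reported here. The members lie within the grey cloud, from H2-Oa at the lower left to Cd74, the 2'-5' oligoadenylate synthetase-like spot and H2-Eb1 at the upper right.

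**Figure D2:**
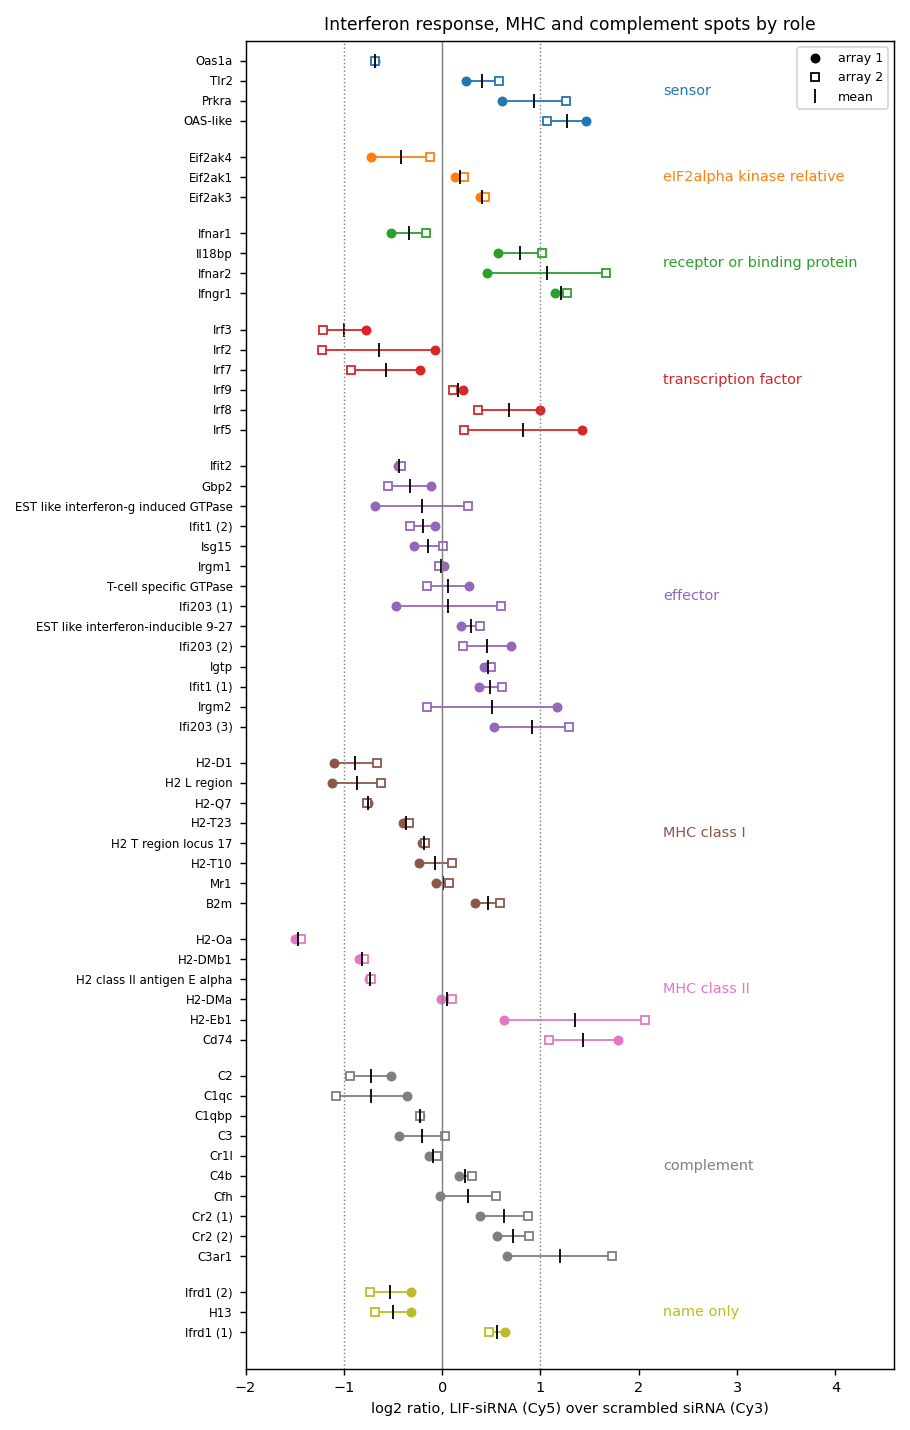
Log2 ratio of LIF-siRNA over scrambled siRNA (x axis) for the tested members reported here (rows), ordered by role; filled circles are array 1, open squares array 2, black ticks their mean, and dotted lines mark a doubling and a halving. Ifngr1, Ifnar2 and Il18bp lie to the right of 0, class I heavy chains mostly to the left, and effectors on both sides.

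Among the sensors of double-stranded RNA and microbial products, 4 of 7 spots could be tested, and 3 were higher and 1 lower on both arrays. The 2'-5' oligoadenylate synthetases make the short oligoadenylate that activates RNase L. The synthetase-like spot read 2345 in the LIF-siRNA channel and 851 in the scrambled channel on array 1, and 1795 against 855 on array 2. Both LIF-siRNA signals were above both scrambled signals, with a log2 ratio of 1.27 ± 0.28 (SD, n = 2, limma SE 0.22, adjusted p = 0.0650). The spot's name does not say which of the mouse synthetase-like genes it is.

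Oas1a, a synthetase that does make the oligoadenylate, went the other way in every measurement. Its signals were 241 after LIF-siRNA and 387 after scrambled siRNA on array 1, and 328 and 527 on array 2. The scrambled signal of each array was higher, and the log2 ratio was -0.68 ± 0.0017 (SD, n = 2, limma SE 0.21, adjusted p = 0.112). Thus the pair of synthetase spots had ratios of opposite sign.

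Eif2ak2, the double-stranded RNA-dependent kinase PKR, was not well above background in either channel of either array, with signals of 12.1 and 14.3 on array 1 and 17.01 and 14.99 on array 2. Prkra, the protein that activates PKR and also binds Dicer, was detected in all 4 measurements. It read 269 after LIF-siRNA against 176 on array 1 and 405 against 169 on array 2. The LIF-siRNA signals did not overlap the scrambled ones, and the log2 ratio was 0.94 ± 0.46 (SD, n = 2, limma adjusted p = 0.100). Tlr2, the receptor for bacterial lipoproteins, had a log2 ratio of 0.41 ± 0.24 (SD, n = 2). Both spots of Tlr1, its partner, were well above background only in the LIF-siRNA channel of 1 array. One read 27.1 against 13.6 and 28.5 against 23.8, and the other 16.9 against 22.2 and 25.8 against 14.5.

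The relatives of PKR that phosphorylate eIF2alpha in other kinds of stress were all detected, and none of the 3 reached an unadjusted limma p below 0.05. Eif2ak3, the kinase of the endoplasmic reticulum, had a log2 ratio of 0.41 ± 0.03 (SD, n = 2). Eif2ak1, the heme-regulated kinase, was at 0.18 ± 0.07, and Eif2ak4, the amino acid-sensing kinase, was at -0.42 ± 0.42.

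The 3 spots of interferon receptor chains did not share a direction, with Ifngr1 and Ifnar2 higher and Ifnar1 lower on both arrays. Ifngr1 is the ligand-binding chain of the interferon gamma receptor. It read 568 after LIF-siRNA against 257 on array 1, and 658 against 272 on array 2. The groups did not overlap and the arrays lay close together, with a log2 ratio of 1.21 ± 0.09 (SD, n = 2, limma SE 0.21, adjusted p = 0.0635). Its processed signals stayed below 1000 in both channels, so it did not meet the criteria as applied here.

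The chains of the type I interferon receptor did not move together. Ifnar2 read 713 against 519 on array 1 and 1187 against 373 on array 2, with a log2 ratio of 1.06 ± 0.85 (SD, n = 2, limma adjusted p = 0.124). The difference was therefore mostly that of array 2. Ifnar1 read 474 against 679 and 528 against 592, lower after LIF-siRNA on both arrays, with a log2 ratio of -0.34 ± 0.25 (SD, n = 2). The difference between the chains was not tested. Il18bp is the secreted protein that binds interleukin 18, named on the array for its ligand, the interferon gamma inducing factor. It read 146 against 98.3 and 220 against 109, a log2 ratio of 0.80 ± 0.32 (SD, n = 2, limma adjusted p = 0.106). With normexp background correction and loess that ratio was 0.47.

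All 7 transcription factor spots were tested, and 4 were higher and 3 lower on both arrays. Irf3, the factor that starts interferon transcription after nucleic acid is sensed, was the lowest of them. It read 561 after LIF-siRNA against 958 on array 1 and 512 against 1190 on array 2. Both LIF-siRNA signals lay below both scrambled signals, with a log2 ratio of -0.99 ± 0.31 (SD, n = 2, limma SE 0.23, adjusted p = 0.0855).

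Irf7, which amplifies the type I response, had log2 ratios of -0.22 and -0.93. Their mean of -0.58 was -0.22 with normexp background correction and loess. Irf2, which acts mainly as a repressor at the ISRE, had -0.07 and -1.22, so that its mean of -0.65 rested on array 2, and its ratio was 0.0372 with normexp background correction and loess. Irf9, the DNA-binding partner of the STAT proteins, was near 0 at 0.16 ± 0.08 (SD, n = 2). Irf8 and Irf5, factors best known in immune cells, were higher after LIF-siRNA, with log2 ratios of 0.99 and 0.37 for Irf8 and of 1.42 and 0.22 for Irf5. For Irf5 the higher ratio came from array 1, where its signal was 346 against 129, while on array 2 it was 162 against 139.

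The interferon-induced effectors stood on both sides of 0. Of 19 effector spots 14 could be tested, and 5 were higher, 3 lower and 6 without a common direction, with a median log2 ratio of 0.06. Isg15, the ubiquitin-like modifier that marks this response, read 105 after LIF-siRNA against 129 on array 1 and 132 against 132 on array 2. The channels overlapped, and the log2 ratio was -0.14 ± 0.21 (SD, n = 2, limma SE 0.22, adjusted p = 0.687). Mx1, the GTPase against influenza virus, was not well above background in any channel, with signals between 8.92 and 17.8, and the software set its ratio to 0.

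The Ifit proteins bind foreign RNA. The first Ifit1 spot read 2025 against 1565 on array 1 and 2094 against 1371 on array 2, a log2 ratio of 0.49 ± 0.17 (SD, n = 2, limma adjusted p = 0.198). The second Ifit1 spot, which carried the same name, read 58.8 against 61.7 and 52.8 against 66.1, a log2 ratio of -0.20 ± 0.18. These spots disagreed in sign. Ifit2 was lower on both arrays, at 223 against 306 and 148 against 198, a log2 ratio of -0.44 ± 0.02 (SD, n = 2, limma adjusted p = 0.226).

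The GTPases induced by interferon gamma act against pathogens inside cells. Igtp was higher on both arrays, with a log2 ratio of 0.46 ± 0.06 (SD, n = 2, limma adjusted p = 0.207). Irgm1 read 964 against 950 and 936 against 959, with a log2 ratio of -0.0074 ± 0.04. Irgm2 had log2 ratios of 1.17 and -0.15, and its scrambled channel was well above background on 1 array only. Gbp2, a guanylate-binding protein, was at -0.33 ± 0.31, with its LIF-siRNA channel detected on 1 array. The T-cell specific GTPase was at 0.06 ± 0.30, higher on array 1 and lower on array 2. Iigp1 and Ifi47 were not well above background in any channel.

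Ifi203, a DNA-binding protein of the p200 family, had 3 spots. Their mean log2 ratios were 0.06, 0.46 and 0.91, and the first had ratios of opposite sign on the arrays, -0.47 and 0.60. The third read 114 against 79.2 and 127 against 51.8, with a limma adjusted p of 0.109. Its family member Ifi204 had 2 spots, each well above background only in the LIF-siRNA channel of 1 array. The first read 29.8 against 24.0 on array 1 and 34.2 against 35.7 on array 2, with ratios of opposite sign, and the second read 34.6 against 16.1 and 20.4 against 12.8. The remaining effector spots were expressed sequences named for their likeness to an interferon-g induced GTPase, at -0.68 and 0.27, and to the interferon-inducible protein 9-27, at 0.19 and 0.39.

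**Figure D3:**
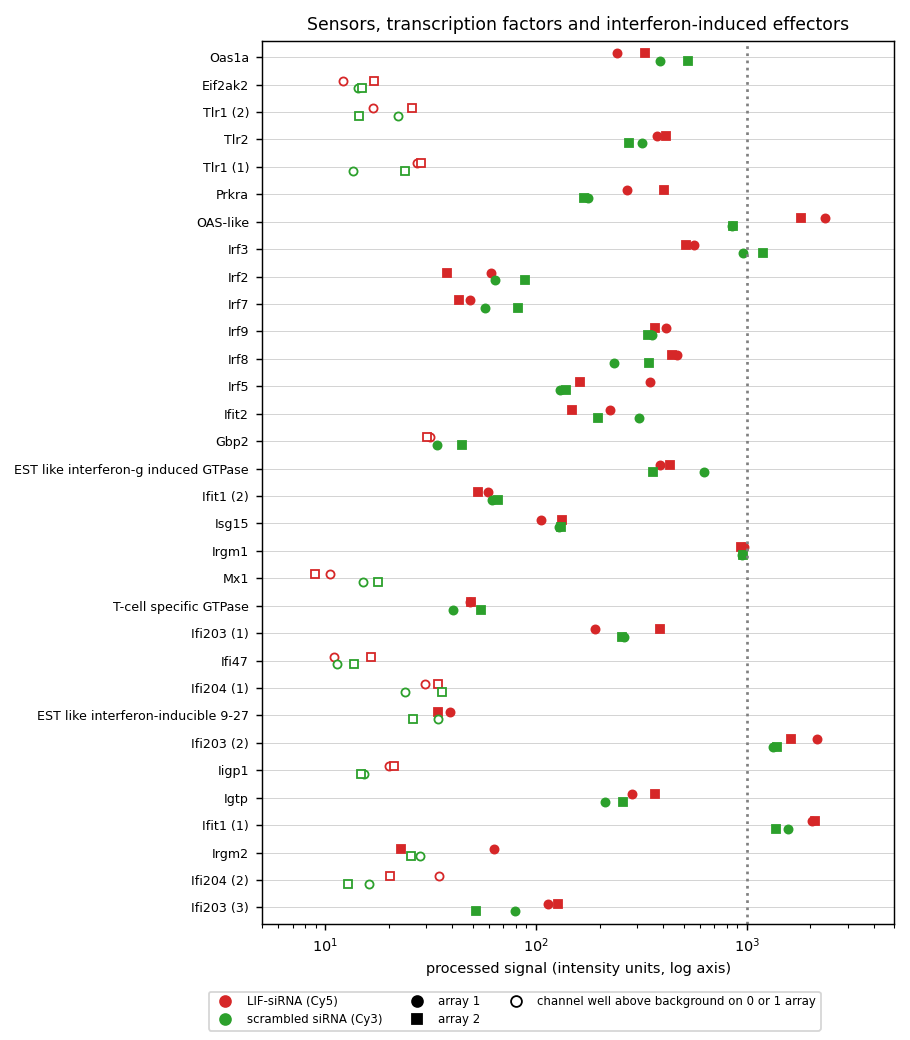
Processed signal (x axis, intensity units on a log axis) of the sensor, transcription factor and effector spots reported here (rows), red for LIF-siRNA and green for scrambled siRNA, circles for array 1 and squares for array 2; open symbols mark a channel that was well above background on fewer than 2 arrays and the dotted line a signal of 1000. Red and green overlap or lie side by side for most effectors, while the synthetase-like spot has its red symbols at 2345 and 1795, to the right of its green ones.

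The MHC class I spots were detected in all channels, and the spots named for heavy chains of the D, L and Q regions were lower after LIF-siRNA. H2-D1, a classical heavy chain that presents peptides to CD8 T cells, read 421 against 906 on array 1 and 612 against 969 on array 2. The spot of the H2 L region read 884 against 1920 and 1372 against 2112. For both spots each LIF-siRNA signal lay below each scrambled signal. Their log2 ratios were -0.88 ± 0.31 (SD, n = 2, limma SE 0.23, adjusted p = 0.0954) and -0.87 ± 0.35 (SD, n = 2, limma SE 0.24, adjusted p = 0.0998).

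These genes are close paralogs, so a cDNA spot of one may also bind RNA of the others, which was not tested. The D and L region spots therefore may not measure separate genes. H2-Q7, a non-classical heavy chain, had ratios of -0.75 and -0.76 (limma adjusted p = 0.101), from signals of 60.1 against 101 and 97.5 against 165. Its mean ratio of -0.76 was -0.42 with normexp background correction and loess. The heavy chains of the T region were closer to 0. H2-T23, which encodes Qa-1, was at -0.37 ± 0.04, locus 17 at -0.19 ± 0.02 and H2-T10 at -0.07 ± 0.24. Mr1, which presents vitamin B metabolites, was at 0.0067 ± 0.09.

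B2m, the light chain that all these heavy chains share, was higher after LIF-siRNA on both arrays. It read 690 against 547 on array 1 and 902 against 599 on array 2, so that the groups did not overlap. Its log2 ratio was 0.46 ± 0.18 (SD, n = 2, limma SE 0.21, adjusted p = 0.219), the opposite sign of the D, L and Q region spots. In all, 1 class I spot was higher on both arrays, 5 were lower and 2 had no common direction, with a median of -0.28.

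The MHC class II spots lay far apart, with means from -1.46 to 1.43. Cd74, the invariant chain that guards the class II groove and also acts as a receptor, read 252 after LIF-siRNA against 72.9 on array 1 and 191 against 90.4 on array 2. Both LIF-siRNA signals were above both scrambled signals, with a log2 ratio of 1.43 ± 0.50 (SD, n = 2, limma SE 0.26, adjusted p = 0.0667). With normexp background correction and loess in place of the software's normalization it was 0.82. H2-Eb1, the E beta chain, read 307 against 198 and 965 against 231. Its log2 ratio was 1.35 ± 1.01 (SD, n = 2, limma SE 0.39, adjusted p = 0.105), with the higher ratio on array 2.

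The partner chain E alpha was lower instead, at 1397 against 2342 on array 1 and 1412 against 2327 on array 2. The ratios of the arrays lay close together, and their mean was -0.73 ± 0.02 (SD, n = 2, limma SE 0.21, adjusted p = 0.103). H2-Oa, a chain of the H2-O modulator of peptide loading, had the lowest ratio of all members in the software's normalization. It read 33.7 against 95.2 and 35.6 against 96.0, a log2 ratio of -1.46 ± 0.05 (SD, n = 2, limma SE 0.21, adjusted p = 0.0592). Its LIF-siRNA channel was well above background on 1 of the 2 arrays, so the size of the difference depends on signals near background. With normexp background correction and loess the ratio was -0.54, and those of Irf3 (-0.85), the L region (-0.80), H2-D1 (-0.75), E alpha (-0.68) and C2 (-0.58) were lower. Its partner H2-Ob was not well above background in any channel.

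H2-DM exchanges peptides in class II molecules. The spot of its beta chain, H2-DMb1, had ratios of -0.85 and -0.79 (limma adjusted p = 0.0932). Their mean of -0.82 was -0.47 with normexp background correction and loess. The spot of the alpha chain, H2-DMa, was at 0.05 ± 0.08. Thus 2 of the 6 tested class II spots were higher on both arrays, 3 were lower and 1 had no common direction.

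**Figure D4:**
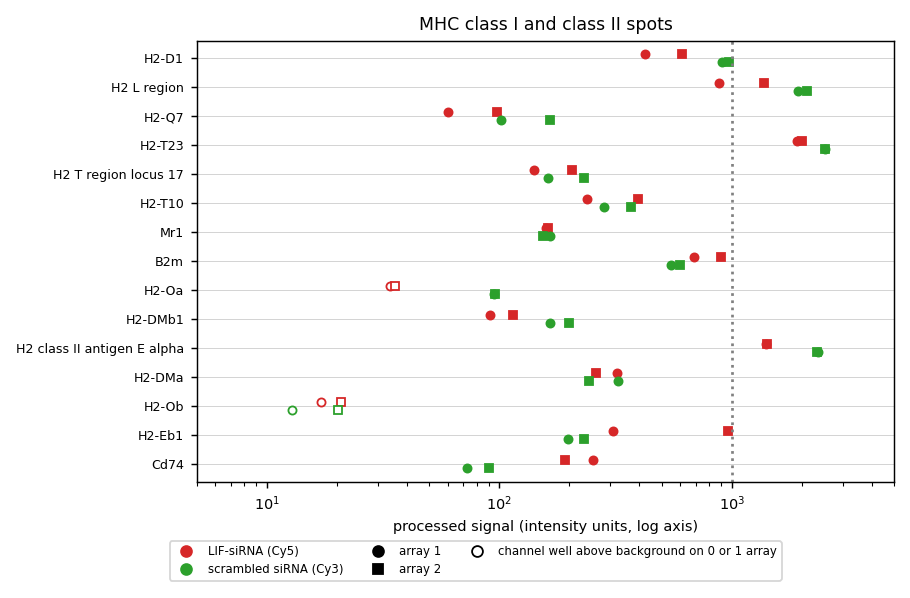
Processed signal (x axis, intensity units on a log axis) of each MHC class I and class II spot (rows), red for LIF-siRNA and green for scrambled siRNA, circles for array 1 and squares for array 2; open symbols mark a channel well above background on fewer than 2 arrays and the dotted line a signal of 1000. Red lies left of green for H2-D1, the L region, H2-Q7, H2-Oa, H2-DMb1 and E alpha, and right of green for B2m, H2-Eb1 and Cd74.

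Class II genes and complement receptors are typical of immune cells, so markers of other cell types were read beside them. Of 4 macrophage spots only CD68 could be tested, at -0.13 ± 0.51 (SD, n = 2). Macrophage expressed gene 1 and the macrophage surface marker named EGF-like module containing, mucin-like, hormone receptor-like sequence 1 were not well above background in any channel. The summed macrophage signal was 274 and 366 after LIF-siRNA and 351 and 318 after scrambled siRNA, so the groups overlapped. Of 16 lymphocyte spots 13 were tested, and 6 were higher and 3 lower on both arrays, with a median of 0.24. Their summed signal was 1593 and 1995 after LIF-siRNA and 1561 and 1535 after scrambled siRNA. The CD3 epsilon chain, a part of the T cell receptor complex, was at 1.10 ± 0.74 (SD, n = 2, limma adjusted p = 0.106) and CD4 at 1.01 ± 0.76. The CD3 delta chain of the same complex was lower on both arrays, at -0.40 ± 0.10, and the T cell kinase Lck was at -0.31 ± 0.42. Of the 2 spots for genes of cumulus cells, which surround the oocyte, the pentaxin related gene read 385 against 242 and 550 against 172, a log2 ratio of 1.17 ± 0.71, and the tumor necrosis factor induced protein 6 was at -0.20 ± 0.61. The part of these cell types in the class II and complement values was not tested, and in such pools fewer cells of a type and less RNA per cell cannot be told apart.

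All 5 spots of embryo markers were detected, and 1 was higher, 2 were lower and 2 had no common direction. Pou5f1, a factor of pluripotent cells, read 7313 and 8315 after LIF-siRNA and 8862 and 8038 after scrambled siRNA. Sox2 was lower after LIF-siRNA, with log2 ratios of -3.00 and -1.69, and so was Krt8, a keratin of the outer cells, with -1.73 and -2.16. Krt19, another such keratin, was at 0.04 ± 0.26, and cadherin 1, the adhesion protein of compaction, was higher on both arrays at 0.47 ± 0.30. The summed signal of 5 hemoglobin spots was 1899 and 1762 after LIF-siRNA against 4247 and 3745, most of it from the embryonic alpha-like chain. That chain was at -1.29 ± 0.02. Of the hemoglobin spots 1 was higher on both arrays, 3 were lower and 1 had no common direction. The higher one was an adult beta chain spot at 0.76 ± 0.01, while another spot of the same name was at -0.19 ± 0.07. The part of these differences in the interferon and MHC values was not tested.

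The complement spots were again divided. Of 16 spots 10 could be tested, with 4 higher and 4 lower on both arrays and a median log2 ratio of 0.07. C3ar1, the receptor for the C3a fragment, read 656 after LIF-siRNA against 414 on array 1 and 943 against 285 on array 2. The groups did not overlap, and its log2 ratio was 1.20 ± 0.75 (SD, n = 2, limma SE 0.32, adjusted p = 0.0981). Both spots of Cr2, the receptor for C3d on B cells, were higher on both arrays, at 0.63 ± 0.34 and 0.72 ± 0.23.

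C2, a protease of the classical pathway encoded in the MHC, read 373 against 534 and 298 against 571, a log2 ratio of -0.73 ± 0.30 (SD, n = 2, limma adjusted p = 0.118). C1qc, a chain of the recognition molecule C1q, was at -0.72 ± 0.51, but at -0.0445 with normexp background correction and loess. C3, the central component of all complement pathways, was at -0.20 ± 0.33 and C4b at 0.24 ± 0.09. The other C1q chains, C1qa and C1qb, were not tested, nor were C4bp, C9 and both spots of a factor H-related protein. C1qbp, a mainly mitochondrial protein that binds C1q, read 13751 against 16093 and 12633 against 14791, at -0.23 ± 0.00050.

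A few members share only their name with the group. Ifrd1, a regulator of differentiation named for its likeness to an interferon, had 2 spots at 0.56 and -0.53, which disagreed in sign on both arrays. H13, a signal peptide peptidase known as a minor histocompatibility antigen, was at -0.50 ± 0.26.

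Other genes of interferon signaling and antigen processing, taken from a list outside the naming rule, were read in the same way. Of 37 spots 33 were tested, and 14 were higher and 13 lower on both arrays, with a median log2 ratio of 0.10. By limma 0 passed at an adjusted p below 0.05, and 11 of the 33 had an unadjusted p below 0.05 (30.7% of all probes did), of which 7 were higher and 4 lower. Among the tested spots, schlafen 4, an interferon-induced gene of myeloid cells, had the highest ratio, from 130 against 42.9 and 328 against 96.1, or 1.68 ± 0.12 (SD, n = 2, limma adjusted p = 0.0580). The cytokine inducible SH2-containing protein 1, an inhibitor of cytokine signaling, had the lowest of the tested spots, from 343 against 955 and 236 against 838, or -1.65 ± 0.25 (SD, n = 2, limma adjusted p = 0.0580).

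The class II transactivator, the master regulator of class II genes, was at 1.00 ± 0.04 (SD, n = 2, limma adjusted p = 0.0755). Myd88, the adaptor of most toll-like receptors, was at 0.88 ± 0.19, and the receptor-bound kinase Tyk2 at 0.80 ± 0.48. Of the interferon-induced subunits of the immunoproteasome, beta type 9 was at -0.78 ± 0.34 and beta type 10 at 0.66 ± 0.52, while beta type 8 was not tested, with ratios of -1.65 and -1.80 from signals well above background in the scrambled channel of 1 array alone. The TAP binding protein, which loads class I molecules, was at 0.74 ± 0.45. Adar, the RNA-editing enzyme that edits double-stranded RNA, was at -0.95 ± 0.39. Ubiquitin specific protease 18, which removes Isg15 from proteins, was not well above background in any channel. The Cxcl10 spot, a chemokine named for its induction by interferon gamma, had ratios of opposite sign on the arrays, -0.55 and 1.20.

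**Figure D5:**
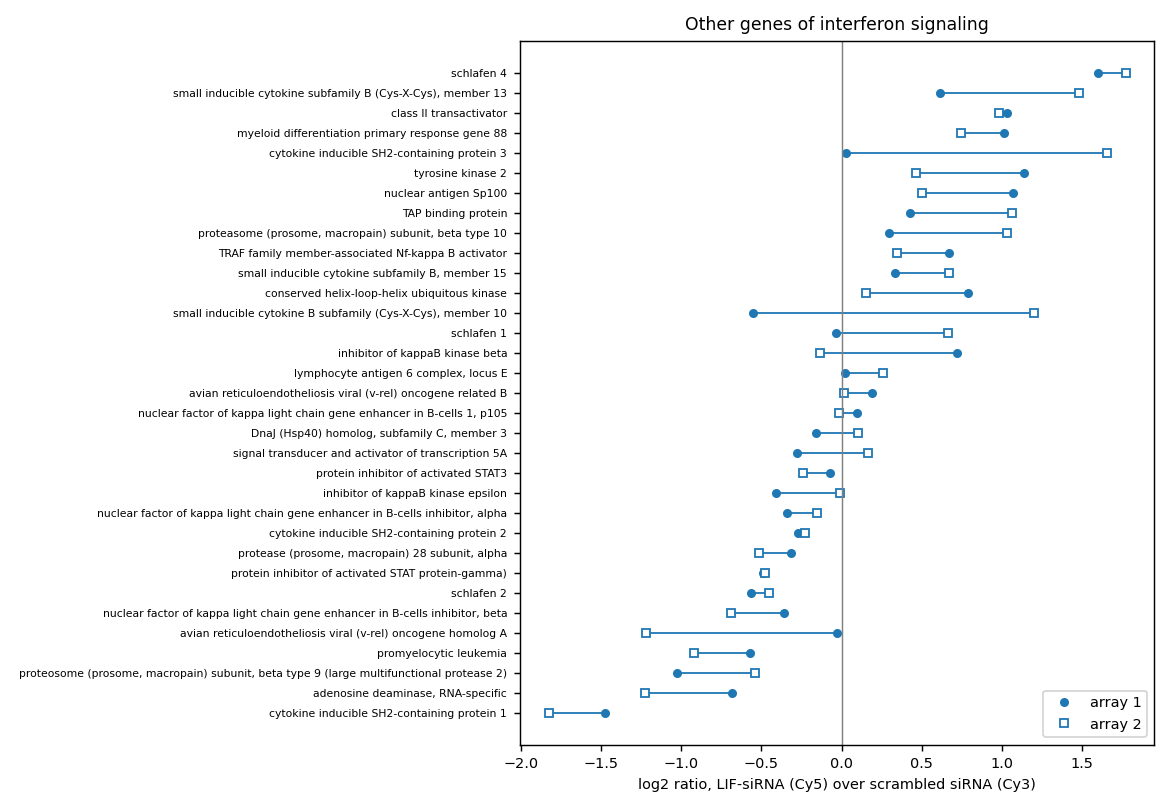
Log2 ratio of LIF-siRNA over scrambled siRNA (x axis) for the 33 tested spots of other interferon signaling and antigen processing genes (rows, by array name), with filled circles for array 1 and open squares for array 2. The spots run from the cytokine inducible SH2-containing protein 1 at -1.65 to schlafen 4 at 1.68, on both sides of 0.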

How the data were processed

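Gene expression was measured in mouse morulae on 2 two-color arrays, Cy5 labelling the LIF-siRNA embryos and Cy3 the controls. The files the authors deposited are Agilent Feature Extraction output, whose version in the headers is not the one the methods name. The deposited intensity columns hold the mean and local background brightness of each spot and a processed signal, background-subtracted and dye-normalized by rank-consistent lowess. The deposited log10 ratio is Cy5 over Cy3 of the processed signals and was converted to log2 here. A further deposited table, on the log2 scale, holds average brightness (r = 0.998 with the mean brightness of both channels, column medians 8.89 and 8.98), not a ratio, and gave no alternative.

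Spots without outlier flags entered, where at least 1 channel of each array was well above background, a limma fit (version 3.58.1, R 4.3.3) of the mean ratio against 0, with Benjamini-Hochberg adjustment over 8079 probes. With 2 arrays precision is low, and p-values measure only the spread between these arrays. Spots of one gene were kept apart. The median ratio of gene spots to local background was 4.83 to 6.60 per channel, and 2.59 to 3.53 for the members.

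Members and lists were chosen with earlier results of these data known. Named were the members past the methods' criteria, the 10 highest and 10 lowest tested, the sensor, receptor, regulatory factor and listed effector spots, and each class I and II locus. The values of 1 member, which the counts include, are not reported here. Symbols were given by hand from the array names; all 58 were in the RefSeq table. Motifs were searched with Python 3.11.15.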

Additional observations from a re-analysis of the deposited data

How the results depend on the processing

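The fit was already paired by array, because each ratio is the difference between both groups within 1 array. For the same reason no further slide or scan block could be fitted. The limma count of members called, 0, was also 0 with normexp background correction and loess (1.83% of all probes called) and with both channels required (3.09%). It was 0, with 0% of all probes called, with no filter on dim spots and with flagged outliers added. A one-sample Student's t-test on the log ratios of both arrays also called 0 members and 0% of all probes. By that t-test 9 members had an unadjusted p below 0.05, against 10.7% of all probes. The limma count was 15 of 59 with median centring (17.7% of all probes called), 9 with an intensity trend (14%) and 4 of 13 above a signal of 1000 (18.7%): the synthetase-like spot, the H2 L region, E alpha and Irf3. That last filter tests fewer probes and left 6 members higher and 7 lower on both arrays. The cause of the other changes was not tested. The methods' criteria were met downward by 2 of the 74 members with median centring (3% of all gene spots), and by 6 upward and 1 downward without the signal threshold (6.55% and 5.13%) or with detection in its place (6.45% and 4.89%). With the threshold on the unprocessed mean signal, chosen after seeing the data, 2 passed upward (2.33%). Leaving out 1 array gave 1 to 2 upward (2.02% to 2.98%) and 1 downward (2.47% to 3.05%), 28 to 33 higher, 26 to 31 lower and a median of -0.02 to 0.10. Signs turned with normexp and loess for Irf2 (0.0372), Irgm1 (0.0229) and the T-cell specific GTPase (-0.0070), and with median centring for Isg15 (0.0024) and the second Ifit1 spot (0.0240). With 1 array left out the ratio ran from -0.47 to 0.60 for the first Ifi203 spot, -0.24 to 0.10 for H2-T10, -0.15 to 1.17 for Irgm2, -0.0085 to 0.10 for H2-DMa, -0.0579 to 0.0714 for Mr1, -0.68 to 0.27 for the expressed sequence like interferon-g induced GTPase, -0.0351 to 0.0202 for Irgm1, -0.29 to 0.0062 for Isg15 and -0.15 to 0.27 for the T-cell specific GTPase.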
